A study of Homo sapiens with 16 samples.

Results

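MDM2, MDM4 and PPM1D encode proteins that restrain the tumour suppressor p53, and their transcripts are 3 of the 58735 genes in the deposited table. They were taken by gene name, but with earlier results of these data known, and were described in all 16 libraries. The libraries came from U2OS, a human osteosarcoma line known to keep wild-type p53. The cells received either SETD2 siRNA (siSETD2), aimed at the enzyme that trimethylates histone H3 on lysine 36, or a non-targeting siRNA (siNT), and were collected 48 h after transfection. Within each siRNA, cells were given 2 mM hydroxyurea (HU) together with 2 µM VE-822 (the combination), HU alone, VE-822 alone, each for 4 h, or no drug. HU depletes deoxynucleotides, which stalls replication. VE-822 is an inhibitor of ATR, the kinase that signals stalled replication. Each of the 8 groups had 2 libraries, numbered R1 and R2. Nothing in the labels says that these were separate cultures, so p-values measure the spread between libraries, which may be technical.

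p53 is a transcription factor that is kept scarce in unstressed cells. MDM2 is a ubiquitin ligase that binds p53, blocks its activity and sends it to the proteasome. MDM4 (MDMX) is its relative, which blocks p53 activity and pairs with MDM2. PPM1D (WIP1) is a phosphatase that removes activating phosphates from p53 and from the DNA damage kinases. MDM2 and PPM1D are themselves p53 target genes, which closes negative feedback loops. U2OS is known to carry a truncating PPM1D variant and to lack the MDM2 inhibitor ARF. Values per gene do not separate the PPM1D forms, and CDKN2A, the gene that encodes ARF, averaged 0.00798 FPKM (fragments scaled to exon length and library size).

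The known p53 response elements of MDM2 lie in its intronic promoter. MDM2 (ENSG00000135679, chr12:68808176-68850686, plus strand, GRCh38) has an upstream promoter and a second one inside the first intron of the longer transcripts. The stretch of the intronic promoter at chr12:68808767-68809001 (RefSeq, GRCh38.p14, plus strand) is shown because it holds a pair of matches to the p53 response element consensus. The PPM1D upstream region at chr17:60599943-60600182 (same source and strand) is shown because the PPM1D transcript moved with MDM2. Capitals mark the matches, and both sequences stop before the first annotated exon base.
MDM2 intronic promoter: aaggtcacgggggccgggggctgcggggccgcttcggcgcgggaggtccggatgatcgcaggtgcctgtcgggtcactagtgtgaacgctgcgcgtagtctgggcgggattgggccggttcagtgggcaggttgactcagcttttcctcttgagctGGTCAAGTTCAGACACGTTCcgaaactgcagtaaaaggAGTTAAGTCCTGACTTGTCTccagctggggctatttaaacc
PPM1D upstream region: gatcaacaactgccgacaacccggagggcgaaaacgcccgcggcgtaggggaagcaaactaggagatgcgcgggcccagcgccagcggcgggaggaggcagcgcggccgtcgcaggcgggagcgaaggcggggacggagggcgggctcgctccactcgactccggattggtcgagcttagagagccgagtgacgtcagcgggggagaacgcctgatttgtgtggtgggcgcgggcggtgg
The search took 20-base windows made of the p53 consensus decamer repeated with no spacer and allowed up to 3 mismatches. The consensus is its own reverse complement, so 1 pass covers both strands. The first MDM2 match, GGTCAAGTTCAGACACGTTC at chr12:68808923-68808942, had 2 mismatches, and the other, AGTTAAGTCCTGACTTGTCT at chr12:68808961-68808980, had 3. They do not overlap. Neither window of the upstream MDM2 promoter, nor the PPM1D or MDM4 window, held a match. Of 35116 promoter windows of 300 bases, 5.2% held at least 1 such match. A match describes letters, not binding, and no match says nothing of elements elsewhere in a gene.

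PPM1D had the highest level per length of the 3 transcripts, with a median of 11.03 FPKM over the 16 libraries and a range of 5.82 to 17.2 FPKM. MDM2 had a median of 7.45 FPKM (3.31 to 10.0), and MDM4 (ENSG00000198625, chr1:204516379-204558120) had a median of 4.16 FPKM (3.52 to 5.43). PPM1D is ENSG00000170836, chr17:60600183-60666280. The smallest number of recovered fragments behind any of these values was 725, so counting error was small. The 3 transcripts thus differed in how far they ranged, and MDM4 ranged least.

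**Figure D1:**
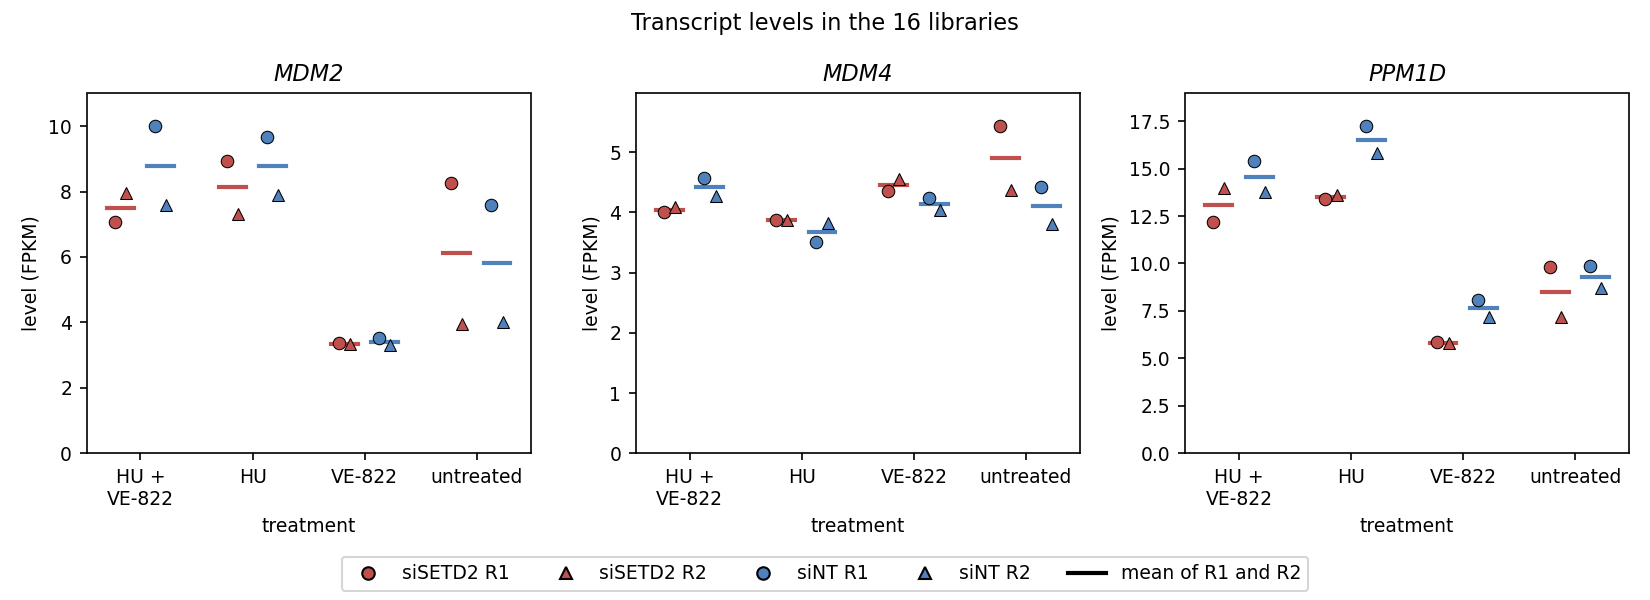
FPKM of MDM2, MDM4 and PPM1D in each library by treatment, siSETD2 left of siNT, with circles for R1, triangles for R2 and bars for the mean of both. MDM2 in untreated cells splits by replicate number (7.60 and 8.26 against 3.95 and 4.02 FPKM), PPM1D is above 12 FPKM in all 8 libraries with HU, and MDM4 stays between 3.52 and 5.43 FPKM.

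Libraries with VE-822 alone stood apart from the others. On the first principal component of the 13088 genes tested (46.1% of the variance) these 4 libraries lay at 29.5 to 35.3. The remaining libraries spanned 0.86 to 7.23 where numbered R2 and -33.3 to -20.5 where numbered R1. A contrast with VE-822 alone therefore sets these libraries against the rest, and the drug and that library set cannot be told apart. SETD2 stood at 2.01 to 4.63 FPKM in the 8 siSETD2 libraries and at 7.34 to 9.25 FPKM in the 8 siNT libraries. Of the mesenchymal and bone markers, 7 of 9 averaged 1 FPKM or more and the list summed to 294 to 527 FPKM. VIM and SPARC were at 77.3 FPKM or more in every library, COL1A1 averaged 21.6 FPKM and RUNX2 2.55 FPKM, while COL1A2 and ALPL did not exceed 0.22 FPKM. In the blood list 1 of 8 markers (CD3D) averaged 1 FPKM or more. Of the epithelial markers, 4 of 8 averaged 1 FPKM or more, and the list summed to 59.2 to 121 FPKM. KRT18 averaged 63.8 FPKM, KRT8 17.3 FPKM, CLDN4 5.68 FPKM and EPCAM 1.855 FPKM, while CDH1, ESRP1, KRT5 and KRT19 did not exceed 0.19 FPKM. In bulk RNA a change in every cell and a change in the mix of cells cannot be told apart.

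PPM1D rose in HU. HU libraries held 13.4 and 13.6 FPKM with siSETD2 and 17.2 and 15.8 FPKM with siNT, against 9.83 and 7.16 FPKM with siSETD2 and 9.86 and 8.72 FPKM with siNT in untreated cells. All 4 HU libraries lay above all 4 untreated libraries, but the share of all genes that separate in this way was not counted. The log2 fold change of FPKM + 1, averaged over both siRNAs, was 0.70 (SE 0.101, adjusted p = 0.0313, limma), and with a term for the replicate number in all groups but the pair with VE-822 alone (the block, 6 groups) the adjusted p was 0.00427. Of the 3 transcripts 1 was called, against a background of 0.107% of 13088 genes. The change was 0.58 within R1 and 0.82 within R2. The call was lost without any 1 of 14 libraries, that is all but the untreated siSETD2 pair (0.59 to 0.80 over all 16 omissions, highest adjusted p = 0.218), and without the VE-822-alone libraries (adjusted p = 0.168).

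MDM2 averaged 8.45 FPKM in HU and 5.96 FPKM in untreated cells, a difference that did not pass, and its untreated level depended on the replicate number. HU libraries held 8.95 and 7.31 FPKM with siSETD2 and 9.67 and 7.89 FPKM with siNT. Untreated R1 libraries held 8.26 FPKM with siSETD2 and 7.60 FPKM with siNT, and untreated R2 libraries held 3.95 FPKM with siSETD2 and 4.02 FPKM with siNT. The HU range thus overlapped the untreated range through the R1 libraries. The averaged log2 fold change was 0.50 (SE 0.206, 95% interval 0.043 to 0.95) and did not pass (adjusted p = 0.595, 0.11 with the block). The difference between HU and untreated cells was 0.21 within R1 and 0.79 within R2.

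This dependence on the replicate number was examined in the 12 libraries without VE-822 alone, with siRNA as an additive term, a test chosen after the values were seen. In untreated cells MDM2 was higher in R1 than in R2 by 0.84 on the log2 scale (SE 0.127, adjusted p = 0.00317), where 24.8% of all genes were called. In HU the R1 libraries differed from the R2 libraries by 0.26 (adjusted p = 0.195, background 14.7%), and in the combination by 0.10 (adjusted p = 0.613, background 18.8%). The R1 response to HU minus the R2 response was -0.58 (SE 0.18, unadjusted p = 0.0111, adjusted p = 0.349), and for the combination it was -0.74 (SE 0.18, unadjusted p = 0.00291, adjusted p = 0.105), so neither passed over all genes. Limma called 0% of genes in either, with 1466 and 2551 at an unadjusted p under 0.05. For PPM1D the untreated R1 libraries exceeded the R2 libraries by 0.29 (adjusted p = 0.0873), and for MDM4 by 0.22 (adjusted p = 0.161).

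MDM4 in HU did not pass the test. HU libraries held 3.88 and 3.88 FPKM with siSETD2 and 3.52 and 3.82 FPKM with siNT, against 5.43 and 4.37 FPKM with siSETD2 and 4.42 and 3.80 FPKM with siNT in untreated cells. The ranges overlapped by the lowest untreated library. The log2 fold change was -0.20 (SE 0.0783, 95% interval -0.37 to -0.027, adjusted p = 0.553). It was -0.33 in R1 and -0.067 in R2 libraries.

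**Figure D2:**
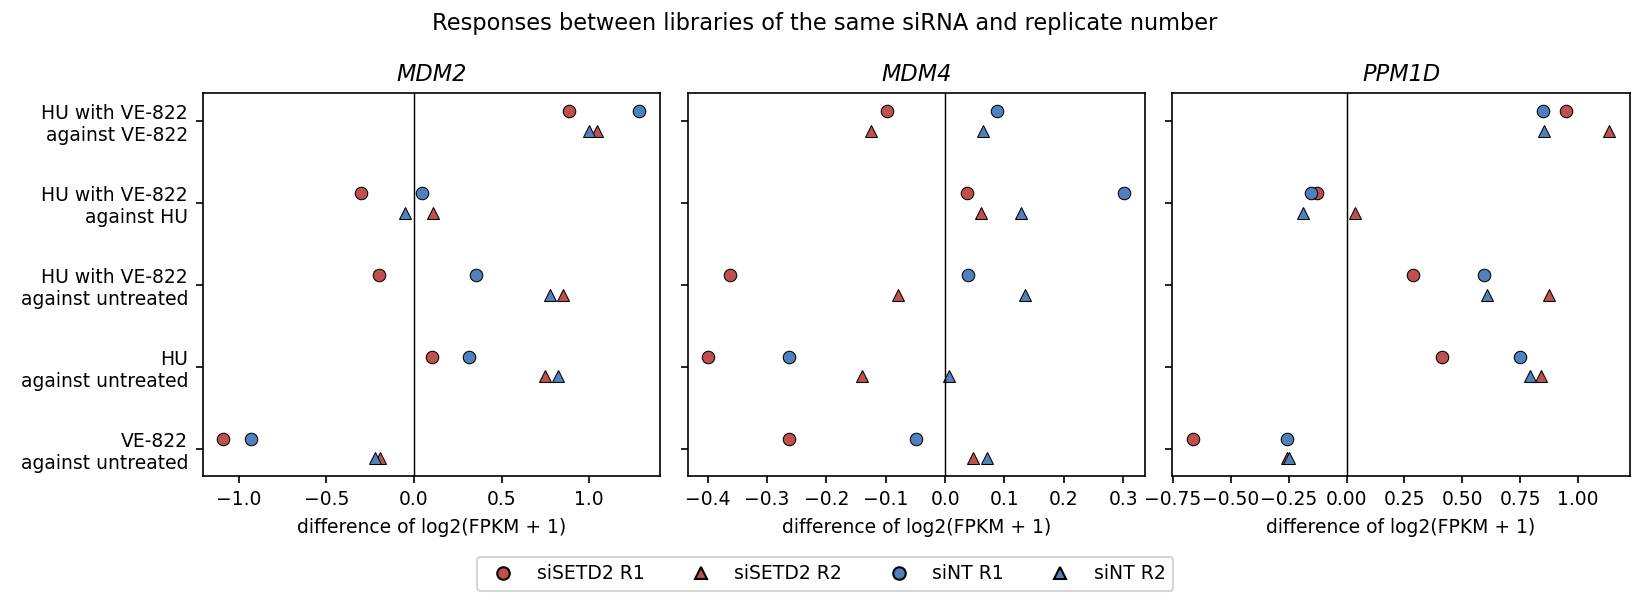
Differences of log2(FPKM + 1) between libraries of the same siRNA and replicate number (circles R1, triangles R2, red siSETD2, blue siNT), with an x axis of its own for each gene. MDM2 in HU against untreated separates by replicate number (0.10 and 0.31 in R1, 0.75 and 0.82 in R2), whereas the combination against VE-822 lies between 0.89 and 1.29 for MDM2 and between 0.85 and 1.13 for PPM1D. Replicate numbers in VE-822 alone are not shown to pair with those of the other groups.

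Adding VE-822 to HU left all 3 transcripts without a call. MDM2 stood at 7.06 and 7.94 FPKM with siSETD2 and at 10.0 and 7.59 FPKM with siNT in the combination. Of these 4 values 2 lay inside the HU range, 1 below and 1 above it. The log2 fold change of the combination against HU was -0.051 for MDM2 (95% interval -0.50 to 0.40, adjusted p = 0.974) and -0.11 for PPM1D (-0.33 to 0.11, adjusted p = 0.841). PPM1D stood at 12.2 and 14.0 FPKM with siSETD2 and at 15.4 and 13.8 FPKM with siNT. MDM4 stood at 4.00 and 4.09 FPKM with siSETD2 and at 4.57 and 4.27 FPKM with siNT, all 4 above the HU libraries, with a difference of 0.13 (-0.040 to 0.30, adjusted p = 0.734). The share of all genes that separate in this way was not counted. The background was 0.00764% of genes by limma, or 1.31% with the block, which called none of the 3. The intervals leave room for changes of either sign in all 3 transcripts.

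The contrasts of HU, VE-822 and the combination with untreated cells share the untreated libraries, and those of the combination share its libraries, so they are not independent of each other. Against untreated cells, the combination gave PPM1D a log2 fold change of 0.59 (SE 0.101), with all 4 treated libraries above all 4 untreated ones. Here too, the share of all genes that separate was not counted. The adjusted p was 0.0515, and with the block PPM1D rose (adjusted p = 0.00639), where the background was 0.0382% of genes and 7.3% with the block. Without untreated siSETD2 R1 the change was 0.69 and passed (adjusted p = 0.0102). The change was 0.44 within R1 and 0.74 within R2. MDM2 differed by 0.45 (SE 0.206, adjusted p = 0.378), with 0.077 in R1 and 0.81 in R2 libraries, and MDM4 by -0.067 (SE 0.0783, adjusted p = 0.749).

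Of the 6 averaged contrasts tested, the combination against VE-822 alone gave MDM2 and PPM1D their highest fold changes. MDM2 stood at 7.06 to 10.0 FPKM in the 4 combination libraries. VE-822 alone held 3.36 and 3.33 FPKM with siSETD2 and 3.51 and 3.31 FPKM with siNT, all 4 below every library with HU. How many of all genes separate in this way was not counted. MDM2 rose by 1.05 on the log2 scale in the combination against VE-822 (SE 0.206, adjusted p = 0.00431, limma). The R1 libraries gave 1.09 and the R2 libraries 1.02. Across genes, R1 minus R2 differences in VE-822 alone correlated with those of the other groups at only -0.0517 to 0.295. Splits by number in contrasts with VE-822 alone are therefore not shown to be paired repeats. PPM1D stood at 12.2 to 15.4 FPKM in the combination, against 5.84 and 5.82 FPKM with siSETD2 and at 8.10 and 7.19 FPKM with siNT in VE-822 alone. It rose by 0.95 (SE 0.101, adjusted p = 0.000173), with 0.90 in the R1 libraries and 0.99 in R2. Both calls held without any 1 of the 16 libraries. MDM4 stood at 4.00 to 4.57 FPKM in the combination, against 4.36 and 4.55 FPKM with siSETD2 and 4.24 and 4.04 FPKM with siNT in VE-822 alone, and differed by -0.018 (SE 0.0783, 95% interval -0.19 to 0.15, adjusted p = 0.88). In this contrast 29.5% of all genes were called, 48.9% with the block, so 2 of 3 members called stands against a high background. Within siNT, MDM2 rose by 1.14 (adjusted p = 0.0409, background 6.84%), a call lost without any 1 of 12 libraries, with a filter of 0.1 FPKM (adjusted p = 0.052) and when scaled to library totals (adjusted p = 0.0564). Within siSETD2 the change was 0.97 (adjusted p = 0.0542, background 11.9%), and it passed with the block (adjusted p = 0.00409, background 35.4% and in siNT 26.9%). PPM1D rose within siSETD2 by 1.04 (adjusted p = 0.00267) and within siNT by 0.85 (adjusted p = 0.00746). The siNT call was lost without siNT R1 in the combination (adjusted p = 0.0732) and without siNT R2 in VE-822 alone (adjusted p = 0.0828).

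Against untreated cells, PPM1D fell in VE-822 alone, with a log2 fold change of -0.36 (SE 0.101, adjusted p = 0.0269), where 24.7% of genes were called. The R1 libraries gave -0.46 and the R2 libraries -0.25. Here and for MDM2 below, the numbers in VE-822 alone are not shown to pair with those in untreated cells. The VE-822-alone and untreated ranges of PPM1D overlapped, and the call was lost without any 1 of 5 libraries (both siSETD2 libraries and siNT R2 in VE-822, and both untreated R1 libraries; highest adjusted p = 0.0975, -0.46 to -0.25 over all 16 omissions). MDM2 in VE-822 alone lay below every untreated library, but the share of all genes that separate in this way was not counted. The log2 fold change of MDM2 was -0.61 (SE 0.206, adjusted p = 0.052, limma), and with the block MDM2 fell (adjusted p = 0.00511, background 44.9%). The difference was -1.01 within R1 and -0.21 within R2. Without untreated siSETD2 R2 it was -0.83 (adjusted p = 0.00691) and without untreated siNT R2 -0.80 (adjusted p = 0.0215). MDM4 differed by -0.049 (SE 0.0783, adjusted p = 0.676).

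**Figure D3:**
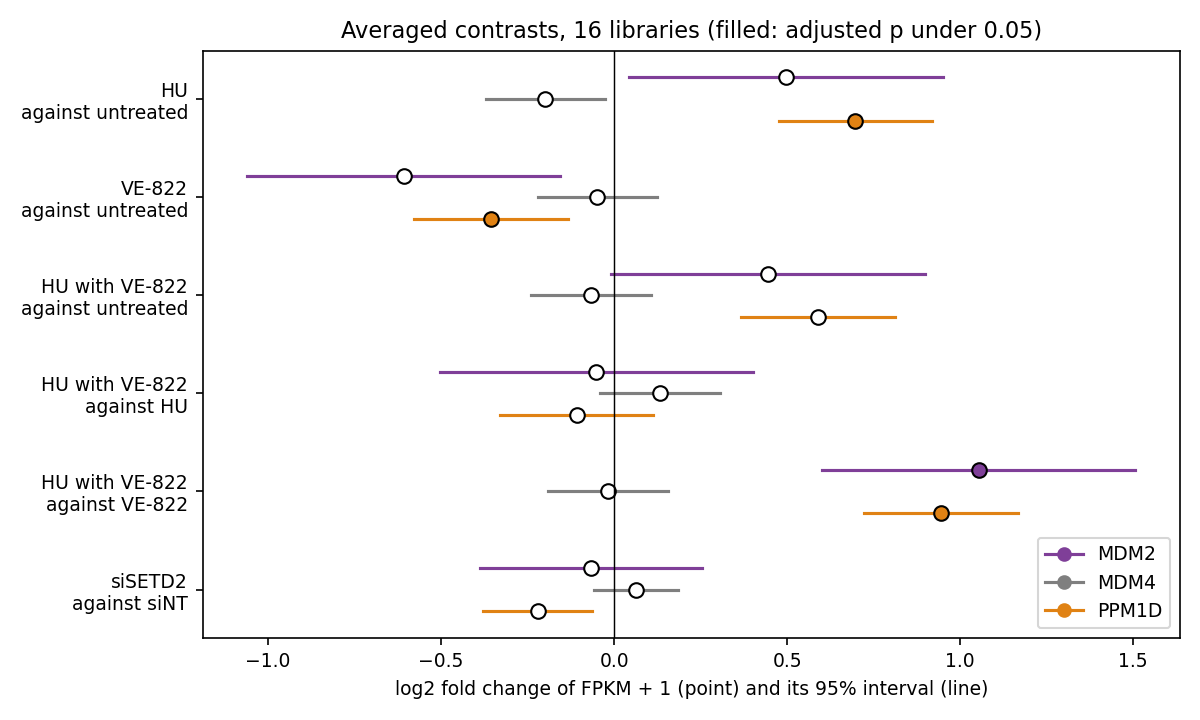
Log2 fold changes of FPKM + 1 (points) with 95% intervals (lines) from limma for 6 averaged contrasts in 16 libraries, filled where the adjusted p was under 0.05. PPM1D is filled for HU (0.70) and for VE-822 (-0.36), each against untreated, and for the combination against VE-822 (0.95). MDM2 is filled in the last of these only (1.05), and MDM4 in none.

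SETD2 siRNA moved none of the 3 transcripts past the threshold. In 7 of 8 same-numbered pairs the siSETD2 library held less PPM1D than the siNT library, with a difference of -0.22 averaged over treatments (SE 0.0712, 95% interval -0.38 to -0.064), and did not pass (adjusted p = 0.282, 0.0746 with the block). The difference was -0.27 within R1 and -0.18 within R2. For PPM1D in HU and in VE-822 alone, siSETD2 lay wholly below siNT, and the groups overlapped in the other treatments. For MDM4, siSETD2 lay wholly above siNT in HU and in VE-822 alone and wholly below it in the combination. With 2 libraries per group such separation is weak evidence, and the share of all genes that separate was not counted. MDM2 differed by -0.068 (SE 0.145, 95% interval -0.39 to 0.25, adjusted p = 0.925) and MDM4 by 0.063 (SE 0.0554, -0.059 to 0.18, adjusted p = 0.784). The background was 0.13% of genes by limma and 3.88% with the block. Within single treatments, limma and limma-voom each called 0 of 12 differences, where limma called 0% of all genes. PPM1D in VE-822 alone, at -0.34 (SE 0.142, adjusted p = 0.9999, limma), was the 1 with an unadjusted p under 0.05.

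No response differed between siRNAs past the threshold. Over 5 treatment contrasts and 3 genes, limma and limma-voom each called 0 of 15 differences (0% of all genes by limma), and 0 had an unadjusted p under 0.05. The siSETD2 response minus the siNT response lay between -0.31 and 0.19, and the lowest unadjusted p was 0.0762, for MDM4 in the combination against untreated (-0.31, 95% interval -0.65 to 0.038). For MDM2 in HU the difference was -0.14, with an interval of -1.05 to 0.76. For PPM1D in HU it was also -0.14 (SE 0.201).

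The groups ordered differently for the 3 genes. For PPM1D the means ran from siNT in HU (16.5 FPKM) through siNT in the combination (14.6), siSETD2 in HU (13.5) and siSETD2 in the combination (13.1). Below these came untreated siNT (9.29), untreated siSETD2 (8.50), siNT in VE-822 (7.64) and siSETD2 in VE-822 (5.83). Neighbours that overlapped were the siSETD2 groups with HU and with the combination, both untreated groups, and untreated siSETD2 and siNT in VE-822. For MDM2 the 6 highest groups overlapped from neighbour to neighbour, from 8.79 FPKM in siNT with HU and VE-822 to 5.81 FPKM in untreated siNT. Both VE-822-alone groups, at 3.41 FPKM in siNT and 3.35 FPKM in siSETD2, lay below them. For MDM4 untreated siSETD2 (4.90 FPKM), siSETD2 in VE-822 (4.45) and siNT in the combination (4.42) came first and overlapped from neighbour to neighbour. Next came siNT in VE-822 (4.14), untreated siNT (4.11) and siSETD2 in the combination (4.05), which also overlapped. The lowest were siSETD2 in HU (3.88) and siNT in HU (3.67), each apart from its neighbour in rank. Groups further apart in rank could still overlap. For MDM4, untreated siNT (3.80 to 4.42 FPKM) spanned both siSETD2 libraries in HU. It also overlapped siNT in HU (3.52 to 3.82) and siNT in the combination (4.27 to 4.57). For PPM1D, siSETD2 (12.2 to 13.95 FPKM) and siNT (13.77 to 15.38 FPKM) overlapped in the combination.

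The balance of MDM2 to MDM4 within a library followed MDM2. The ratio of their FPKM was 1.76 to 2.19 in the 4 libraries with HU and VE-822, 1.88 to 2.75 in HU and 0.732 to 0.829 in VE-822 alone. In untreated cells it was 1.52 and 1.72 in R1 and 0.904 and 1.06 in R2. PPM1D to MDM2 ranged less, from 1.19 in untreated siSETD2 R1 to 2.31 in VE-822 siNT R1.

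Across the 16 libraries, MDM2 and PPM1D correlated at a Pearson r of 0.91 on the log2 scale. MDM4 correlated with MDM2 at -0.087 and with PPM1D at -0.40. These values describe libraries that share treatments, replicate sets and the VE-822-alone group. The 5 genes most like MDM2 were DUSP14 (r = 0.98), FHL2 (0.97), CDKN1A (0.97), DUSP2 (0.96) and ELL2 (0.95). CDKN1A is the p53-induced cyclin-dependent kinase inhibitor p21. Those most like PPM1D were the p53-induced antiproliferative gene BTG2 (0.98), the cell cycle phosphatase CDC25A (0.95), SLC35A4 (0.93), CSRNP1 (0.92) and DPYSL3 (0.91). Those most like MDM4 were AC005261.1 (0.90), ANKS3 (0.83), AL035071.1 (0.83), S100A13 (0.78) and AL355488.1 (0.77).

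The wider p53 target list, which includes MDM2 and PPM1D, had 34 of 36 genes tested. In HU against untreated, all 34 fold changes were above 0 with a median of 0.39, against 0.011 over all genes. The share of all genes above 0 was not counted, and the 34 values come from the same libraries, so they are not independent. Only PPM1D passed by limma, and 10 rose with the block, where 1.6% of all genes were called and 0.848% were called higher. In the combination against VE-822, 24 rose and 1 fell (17.5% and 12% of all genes; 28 and 2 genes with the block, against 28% and 20.8%), with a median of 0.70 against 0.051 over all genes. CDKN1A rose by 1.97 (adjusted p = 0.000439), the mTORC1 inhibitor gene SESN2 by 1.32 (adjusted p = 0.000224), BTG2 by 1.28 (adjusted p = 0.00102) and the stress cytokine GDF15 by 1.14 (adjusted p = 0.00781). PMAIP1, which encodes the apoptosis inducer NOXA, was the one that fell (-0.64, adjusted p = 0.0156). In VE-822 against untreated, 3 rose and 6 fell (11.4% and 13.4% of all genes), and with the block 4 rose and 16 fell (20.7% and 24.2% of all genes). PMAIP1 rose by 1.06 (adjusted p = 0.00152) and the death receptor gene FAS by 0.57 (adjusted p = 0.0329). CDKN1A changed by -1.02 (adjusted p = 0.0144), SESN2 by -0.68 (adjusted p = 0.00836) and the death receptor gene TNFRSF10B by -0.52 (adjusted p = 0.00147). In the combination against untreated, no target passed by limma and 10 rose with the block (4.07% of all genes). In the combination against HU, 0 passed with or without the block, with a median of -0.0096. In siSETD2 against siNT, RRM2B, a ribonucleotide reductase subunit, fell with the block (-0.32, adjusted p = 0.024), as did TRIM22 (-0.41, adjusted p = 0.0269), and neither passed without it. These were 2 of 34 targets, against 3.88% of all genes called in either direction with the block, so the count says little about the list.

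**Figure D4:**
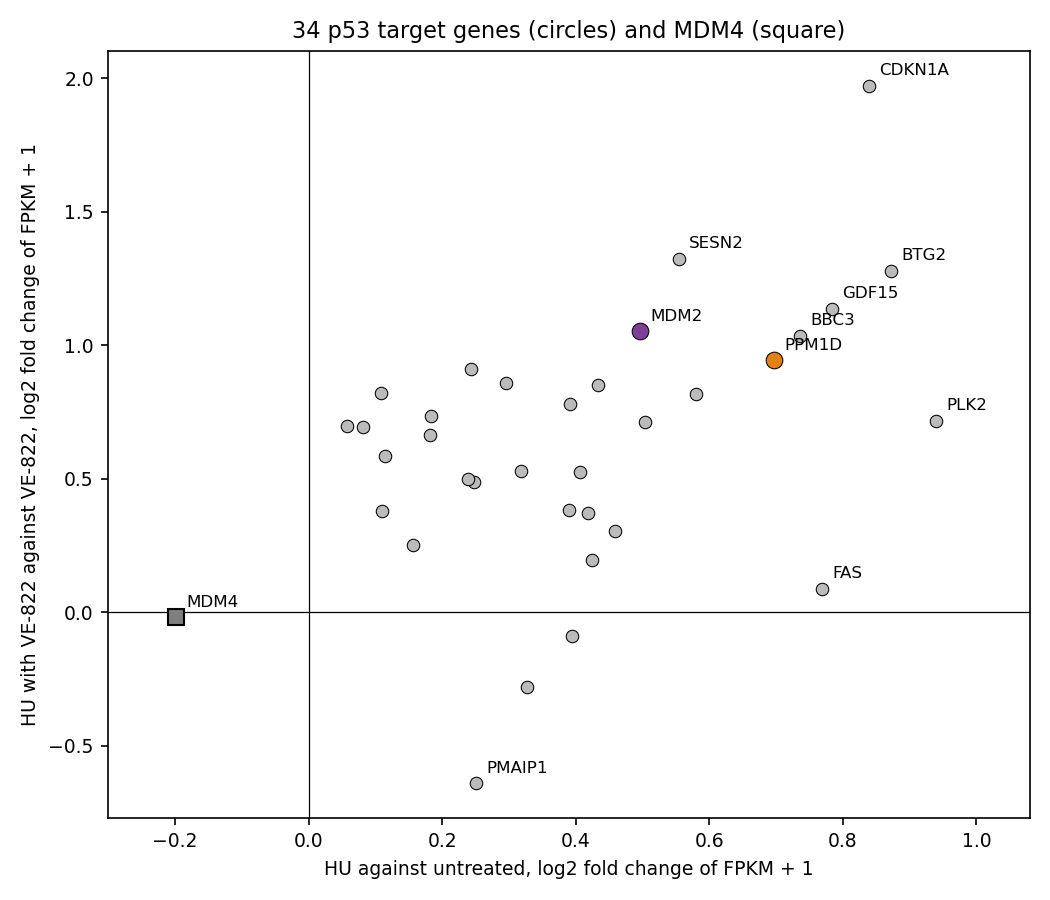
Log2 fold changes of FPKM + 1 of 34 p53 target genes (circles) and MDM4 (square) in HU against untreated (x axis) and the combination against VE-822 (y axis), contrasts that share no library. MDM2 (0.50, 1.05) and PPM1D (0.70, 0.95) lie among the targets, CDKN1A is highest on the y axis (1.97), and MDM4 lies at -0.20 and -0.018.

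Genes that act on p53 turnover or bind MDM2 were tested for 23 of 25 genes. In HU against untreated, 12 of 23 were above 0, with a median of 0.0054 against 0.011 over all genes, and none passed with or without the block. In the combination against VE-822, 8 rose and 1 fell (17.5% and 12% of all genes), and 12 and 1 with the block (28% and 20.8%). The nucleolar protein NPM1 rose by 0.74 (adjusted p = 0.00628), the p53 deubiquitinase USP10 by 0.50 (adjusted p = 0.0042), the MDM2 partner DAXX by 0.48 (adjusted p = 0.00237) and RASSF1 by 0.45 (adjusted p = 0.00467). The ubiquitin ligase adaptor WSB1 changed by -0.51 (adjusted p = 0.00342). In VE-822 against untreated, 1 rose and 3 fell (11.4% and 13.4% of all genes), and 2 and 9 with the block (20.7% and 24.2%). WSB1 rose by 0.39 (adjusted p = 0.0134), while DAXX changed by -0.47 (adjusted p = 0.00288), USP10 by -0.46 (adjusted p = 0.00737) and the MDM4-binding kinase CSNK1A1 by -0.31 (adjusted p = 0.0103).

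Of 10 kinases that phosphorylate p53 or act above it, none passed in HU against untreated by limma, and 1 with the block (the mitotic kinase TTK, -0.46, adjusted p = 0.0433). In VE-822 against untreated, where 24.7% of all genes were called, CHEK1 was the 1 kinase called and rose by 0.52 (adjusted p = 0.027). In the combination against VE-822, where 29.5% of all genes were called, 2 of 10 kinases passed. HIPK2 rose by 0.32 (adjusted p = 0.0203) and CHEK2 changed by -0.25 (adjusted p = 0.0478). Of the PPM family phosphatases, relatives of PPM1D, 14 of 18 were tested. PPM1D was the one that passed in HU against untreated, with or without the block, and the family median was -0.017. In VE-822 against untreated, 2 rose and 3 fell (11.4% and 13.4% of all genes), PPM1D among those that fell. The pyruvate dehydrogenase phosphatase PDP1 rose by 0.69 (adjusted p = 0.00545) and PHLPP2 by 0.31 (adjusted p = 0.0207), while PPM1F changed by -0.65 (adjusted p = 0.000763) and PPTC7 by -0.33 (adjusted p = 0.0277). In the combination against VE-822, 4 rose, PPM1D among them, and 1 fell (17.5% and 12% of all genes), and 7 and 1 with the block (28% and 20.8%). PPM1F rose by 0.72 (adjusted p = 0.000436), PPTC7 by 0.62 (adjusted p = 0.00138) and PPM1G by 0.42 (adjusted p = 0.0434). PDP1 changed by -0.97 (adjusted p = 0.000862).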

How the data were processed

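The authors deposited 1 table of FPKM values for 58735 genes in 16 libraries. Per the submitters' processing notes, FastQC, STAR 2.6.1d, featureCounts 1.5.0-p3, DESeq2 1.26.0 and the build hg38 were used; neither their settings nor the annotation or strand use is given in the sources at hand. Gene names, exon lengths and positions came from GENCODE 29, which holds all 58735 identifiers. Multiplying FPKM by merged exon length gave whole fragments within 0.01 for 100% of values above 0, with 22310806 to 31101932 fragments per library. On either strand, no single annotated neighbour shares more than 5.91% of the exon bases of MDM2, and the joint share of its neighbours was not computed. Neighbours share no exon bases of MDM4 or PPM1D.

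limma 3.58.1 in R 4.3.3 (trend on) was run on log2(FPKM + 1) of the 13088 genes whose mean reached 1 FPKM. The model had 1 mean per group, 8 residual degrees of freedom and 2.98 prior degrees of freedom for the variance. P-values are two-sided and adjusted over these genes by Benjamini-Hochberg, with a threshold of 0.05. The fit was tested on simulated counts that had no shift by replicate number and no separate VE-822-alone set. That test therefore does not cover these features of the data. The pseudocount understates changes of low genes. The differences R1 minus R2 correlated across genes at 0.363 to 0.746 in 15 pairs among the 6 groups given no drug, HU or the combination, and at -0.0517 to 0.295 in 12 pairs that joined one of these to VE-822 alone. Both VE-822-alone groups correlated with each other at 0.395. The replicate block covers the 6 groups without VE-822 alone and models no shift by number within VE-822 alone. The pairing comes from the shared numbers and this check, as no label names a shared culture.

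The members and lists were chosen with earlier results of these data known. List genes were named where they passed in an averaged contrast, at most 5 per list and contrast by size of change. Genes like a member were the 5 with the highest Pearson r. The transcript of p53 itself is not reported here. Promoters came from RefSeq (GRCh38.p14). Alternatives were another pseudocount, filter and scaling, replicate blocks, left-out libraries and limma-voom on recovered fragments.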

Additional observations from a re-analysis of the deposited data

Results flagged for a closer look

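MDM4 in HU with VE-822 against VE-822 differed in opposite directions in the 2 siRNAs, but passed in neither by limma. The change was -0.11 in siSETD2 (adjusted p = 0.521) and 0.076 in siNT (adjusted p = 0.707). The share of all genes whose library ranges separate in opposite directions was not counted. Both siSETD2 libraries in HU with VE-822 (4.00 and 4.09 FPKM) lay below both in VE-822 alone (4.36 and 4.55 FPKM), while both siNT libraries in HU with VE-822 (4.57 and 4.27 FPKM) lay above both in VE-822 alone (4.24 and 4.04 FPKM). The siSETD2 response minus the siNT response was -0.19 on the log2 scale (SE 0.157, 95% interval -0.53 to 0.16, unadjusted p = 0.257, adjusted p = 0.9998 by limma), so the test of the difference did not pass.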

How the results depend on the processing

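Of 18 averaged member results, 14 kept their side of the threshold under every alternative that could be fitted, and 14 kept their sign; the 4 that changed sign were never called (MDM2 in HU with VE-822 against HU and in siSETD2 against siNT, MDM4 in VE-822 against untreated and in HU with VE-822 against VE-822). MDM2 in VE-822 against untreated passed with a pseudocount of 0.1 (-0.72), with limma-voom (-0.74) and with either replicate block (-0.61), and ran from -0.83 to -0.38 when 1 library was left out. PPM1D in HU against untreated lost its call when scaled to library totals (0.68) and without the VE-822-alone libraries (0.70), and ran from 0.59 to 0.80 when 1 library was left out. PPM1D in VE-822 against untreated ran from -0.46 to -0.25. PPM1D in HU with VE-822 against untreated passed with each of the 3 replicate blocks (0.59) and ran from 0.49 to 0.69. The blocks changed no other averaged member call; the cause of these changes was not tested.

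Genes called in HU against untreated numbered 14, but 45, 209 and 72 with the block over all 8 groups, in 6 groups and without the VE-822-alone libraries, and 0 without these libraries and no block. In HU with VE-822 against untreated they numbered 5, against 413, 956 and 413 with these blocks, 11 with a pseudocount of 0.1, 27 scaled to totals and 0 without the VE-822-alone libraries. In HU with VE-822 against HU they numbered 1, against 20, 172 and 56, 2 scaled to totals and 0. In VE-822 against untreated 3237 became 5122 and 5874 with the blocks over 8 and 6 groups, in HU with VE-822 against VE-822 3857 became 6397 with the block in 6 groups, and in siSETD2 against siNT 17 became 147 and 508 with these blocks and 5 with a filter of 0.1 FPKM. Leaving out 1 library gave 0 to 52, 0 to 430, 1 to 3, 1772 to 4599, 2269 to 4749 and 0 to 208 for these 6 contrasts in the order given here. Limma-voom and the test of R1 against R2 responses were chosen after seeing the data; the planned count models were not run, since the deposited unit is FPKM.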
